A study of Homo sapiens with 10 samples.

Results

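ABC transporters that pump drugs out of cells are the subject here: 10 human genes, ABCB1, ABCB4, ABCC1, ABCC2, ABCC3, ABCC4, ABCC5, ABCC10, ABCC11 and ABCG2, and the ZEB1 binding sites in and around them. A site was taken for a gene when its midpoint lay inside the RefSeq GRCh38 gene or within 20 kb of either end. By this rule 42 of the 52981 sites in the study's count table belonged to the pump genes. They fell at 9 of the 10 genes, with 10 sites at ABCC3, 8 at ABCC1, 6 at ABCC4, 4 each at ABCC10 and ABCG2, 3 each at ABCC2, ABCC5 and ABCC11, and 1 at ABCB1. ABCB4 had no site. Inside the genes lay 31 sites, and 11 lay outside them. Sites are numbered here along each gene by rising coordinate.

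ZEB1 was mapped by CUT&RUN, in which an antibody brings a nuclease to the places where a protein sits on DNA and the released fragments are sequenced. The cells are human breast cancer cells that the labels name MDA, with cell type Er-/Pr-/Her2- (no estrogen, progesterone or HER2 receptor), and the sample descriptions also mention Tn5, which is not part of CUT&RUN. The control group was untreated (cell line label MDA_Parental), with no time given. The other groups received 300 nM eribulin (spelled Erubilin in the labels) for 24, 48 or 72 h and carry the cell line label MDA_ERI, so that drug, time in culture and any difference between those lines cannot be told apart. Each of these 4 groups had 2 ZEB1 libraries. A further 2 IgG libraries of untreated cells were not analysed here.

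Eribulin binds the growing ends of microtubules and stops cell division. Like taxanes and vinca alkaloids it is a substrate of P-glycoprotein, the product of ABCB1, and pumps of this kind are known for lowering the drug level inside tumour cells. ABC transporters use ATP to move their cargo across a membrane. The ABCC members, also called MRPs, export organic anions and conjugates made with glutathione or glucuronic acid, and ABCG2, also called BCRP, exports topotecan, mitoxantrone and urate. ZEB1 is a zinc finger protein that binds E-boxes of the form CAGGTG or CAGGTA, represses epithelial genes and can also activate genes together with AP-1 and YAP.

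Promoter sequences are shown for the pump genes with an annotated start in or beside a ZEB1 site (1 window of ABCC10 and 2 of ABCG2 stand for several there), with the ABCB1 promoter, which holds none, for comparison. Each is a RefSeq GRCh38.p14 window of 300 bases around an annotated start, on the strand of the gene, printed 5′ to 3′. Capitals mark every match, on either strand, to an E-box, spelled CAGGTG or CAGGTA, to the AP-1 motif TGANTCA, to the CCAAT box or to the GC box, spelled GGGCGG. In the ABCB1 window an AP-1 match and a CCAAT match share a base.
ABCC10, chr6:43427613-43427912 (+), inside ABCC10 site 1: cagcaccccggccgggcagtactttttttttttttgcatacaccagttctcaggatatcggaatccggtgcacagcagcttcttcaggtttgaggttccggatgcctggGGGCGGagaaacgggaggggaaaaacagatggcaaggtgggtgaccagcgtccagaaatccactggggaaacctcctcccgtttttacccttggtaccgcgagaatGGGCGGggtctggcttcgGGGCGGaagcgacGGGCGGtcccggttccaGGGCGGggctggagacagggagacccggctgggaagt
ABCC5, chr3:184017835-184018134 (-), inside ABCC5 site 3: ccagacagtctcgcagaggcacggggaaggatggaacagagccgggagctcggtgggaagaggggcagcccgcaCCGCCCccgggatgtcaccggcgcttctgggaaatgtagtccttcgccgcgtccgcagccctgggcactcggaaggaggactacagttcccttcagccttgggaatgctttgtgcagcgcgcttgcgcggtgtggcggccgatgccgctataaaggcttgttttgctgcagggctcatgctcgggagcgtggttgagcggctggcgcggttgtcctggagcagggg
ABCG2, chr4:88158860-88159159 (-), overlapping ABCG2 site 3: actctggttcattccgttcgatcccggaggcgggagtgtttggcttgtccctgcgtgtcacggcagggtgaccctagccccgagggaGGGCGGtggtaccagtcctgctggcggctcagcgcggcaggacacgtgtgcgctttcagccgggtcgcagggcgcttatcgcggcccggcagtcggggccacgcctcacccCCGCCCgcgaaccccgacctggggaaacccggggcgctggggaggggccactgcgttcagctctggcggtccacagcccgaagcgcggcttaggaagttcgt
ABCG2, chr4:88158590-88158889 (-), overlapping ABCG2 sites 2 and 3: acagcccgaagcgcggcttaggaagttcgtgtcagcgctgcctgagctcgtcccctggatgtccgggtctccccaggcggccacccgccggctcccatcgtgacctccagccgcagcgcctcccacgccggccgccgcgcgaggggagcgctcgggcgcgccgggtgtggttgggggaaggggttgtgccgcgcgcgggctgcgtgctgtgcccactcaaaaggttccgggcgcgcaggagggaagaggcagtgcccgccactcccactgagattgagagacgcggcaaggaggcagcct
ABCC11, chr16:48244539-48244838 (-), 66 bases from ABCC11 site 3: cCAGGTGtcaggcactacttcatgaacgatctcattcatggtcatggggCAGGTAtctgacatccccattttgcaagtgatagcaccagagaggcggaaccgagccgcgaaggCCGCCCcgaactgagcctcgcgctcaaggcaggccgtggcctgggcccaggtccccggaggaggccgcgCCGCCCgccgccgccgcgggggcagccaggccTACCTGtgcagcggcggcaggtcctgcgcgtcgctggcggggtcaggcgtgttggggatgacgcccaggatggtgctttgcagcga
ABCC4, chr13:95301402-95301701 (-), 83 bases from ABCC4 site 6, without a match: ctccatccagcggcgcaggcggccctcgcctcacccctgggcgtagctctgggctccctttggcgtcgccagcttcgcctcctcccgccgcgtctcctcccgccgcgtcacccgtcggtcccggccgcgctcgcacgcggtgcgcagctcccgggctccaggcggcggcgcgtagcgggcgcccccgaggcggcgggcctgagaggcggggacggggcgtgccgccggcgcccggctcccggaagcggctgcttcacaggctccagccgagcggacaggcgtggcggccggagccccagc
ABCB1, chr7:87600835-87601134 (-), 27060 bases from ABCB1 site 1: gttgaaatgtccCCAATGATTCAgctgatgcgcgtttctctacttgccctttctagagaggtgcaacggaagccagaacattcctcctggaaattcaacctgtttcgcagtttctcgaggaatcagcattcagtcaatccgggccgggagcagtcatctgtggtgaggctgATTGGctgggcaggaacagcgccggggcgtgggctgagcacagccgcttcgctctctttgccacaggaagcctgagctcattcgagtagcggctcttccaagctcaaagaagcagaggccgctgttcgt

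RefSeq windows were found for 7 of the 10 genes, 15 windows in all, and 6 of these overlapped a ZEB1 site. None of those 6 windows held an E-box of either form, and 4 of them held a GC box. Among the 15 windows 4 held an E-box, and the ABCC11 window printed above held 3 matches. Over 35116 human promoter windows of the same length, CAGGTG was present in 20.6%, CAGGTA in 9.83%, TGANTCA in 7.71%, CCAAT in 34.6% and GGGCGG in 45.0%. These matches describe the letters of the windows only, and sequences of the sites outside these windows were not examined.

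Counts in the 52981 sites summed to between 3146228 and 3561455 in the control libraries, 1799143 and 1886419 after 24 h, 1346179 and 1380070 after 48 h, and 1130706 and 1207987 after 72 h. The pair of libraries of every group differed by less than sampling noise. Over sites of at least 20 counts, their chi-square divided by its degrees of freedom lay between 0.830 and 0.951 for all sites and between 0.542 and 0.905 for the pump sites, where sampling alone gives about 1. Each group was therefore counted as 1 sample (n = 1), and the edgeR p-values below compare these libraries, not the conditions. Site levels are pooled counts scaled to library size with TMM factors (CPM), fold changes are log2 ratios of pooled CPM, and ranges after them are exact 95% intervals that cover counting error only. A site was called when edgeR's quasi-likelihood adjusted p, over 46436 tested sites, was at or below 0.05. TMM sets the sites against each other, so "rose" and "fell" mean relative to the other sites. Scaled instead to the background floor of the peak caller, the median of all sites moved by -0.93 after 24 h, -1.41 after 48 h and -1.50 after 72 h on the log2 scale, and scaled on the sites with low counts it moved by -0.17 after 24 h.

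Of the 42 pump sites, 37 passed the filter on low counts and 32 of these were called at 1 or more times. At 24 h, 15 of 37 tested pump sites fell and 12 rose, where 26.8% of all tested sites fell and 28.1% rose. At 48 h, 10 fell and 8 rose, against 16.9% and 16.8% of all tested sites. At 72 h, 8 fell and 9 rose, against 17% and 18.9%. The median log2 fold change of the pump sites was -0.12 after 24 h, 0.08 after 48 h and 0.18 after 72 h, beside 0.02, -0.01 and 0.00 over all tested sites. With a change of at least 2-fold required as well, 8 fell and 8 rose at 24 h (13.5% and 14.9% of all tested sites), 3 and 6 after 48 h (7.55% and 10.5%), and 6 and 7 after 72 h (8.55% and 12.2%). On the background floor scale the split turned to 22 lower and 5 higher at 24 h, 28 and 1 after 48 h, and 28 and 0 after 72 h. Without control replicate 1 the number that rose at 24 h was 7. Without replicate 1 of the 48 h group 4 fell and 3 rose at 48 h, and without replicate 2 of that group 5 rose. At 72 h 4 fell without replicate 2 of the 72 h group and 4 rose without its replicate 1. The 3 exposure times share the same control libraries. Across them 6 sites fell each time and 5 rose each time. Of the 42 sites, 8 entered the table through a 24 h peak alone and 13 through a control peak alone, which favoured a higher level at 24 h at the former and a lower one at the latter before any test. ABCC10 site 3 entered through a 48 h peak alone, which favoured a higher level at 48 h there.

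**Figure D1:**
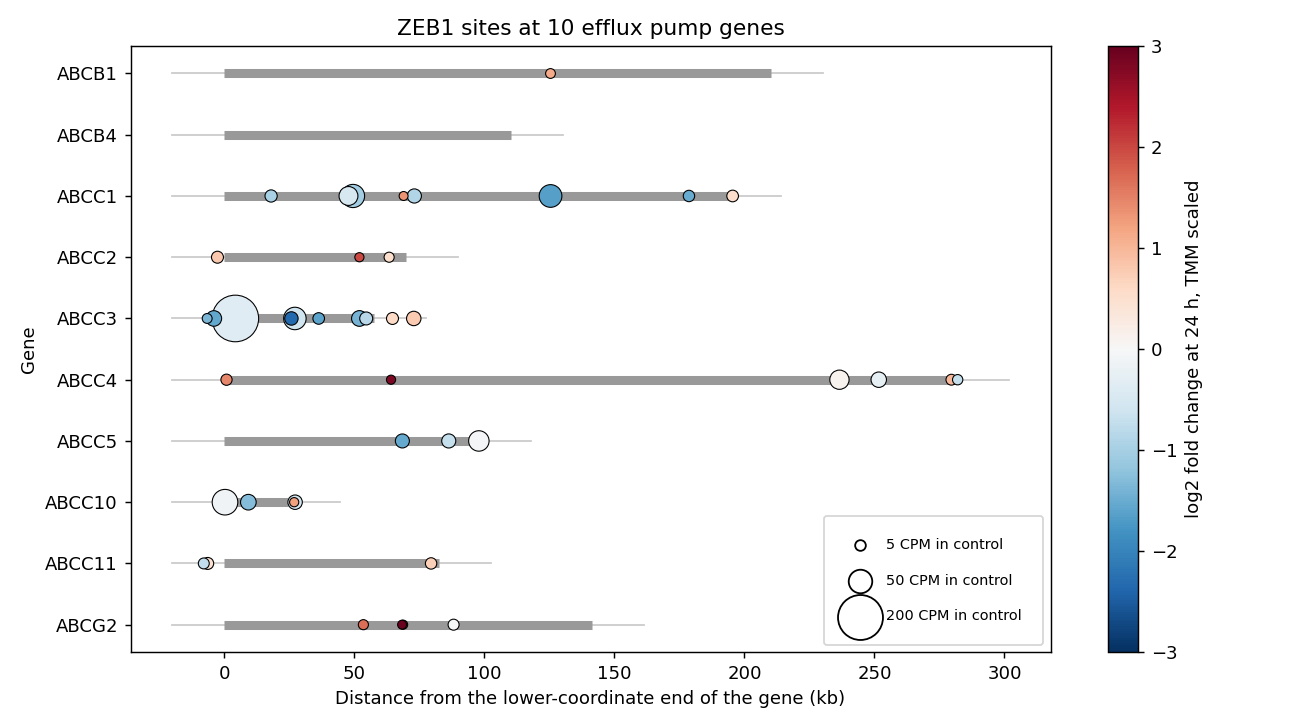
Positions of the 42 ZEB1 sites along the 10 pump genes, as distance in kb from the lower-coordinate end of each gene. Dark bars are genes, thin lines the 20 kb on either side, circle area rises with the control level in CPM and colour gives the log2 fold change at 24 h (TMM scaled, so relative to the other sites). The circle of ABCC3 site 3 is the largest, at 215 CPM, and ABCB4 has none.

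ZEB1 signal at the pump genes in untreated cells was uneven. Summed over the sites of a gene, ABCC3 was highest at 352 CPM (95% counting interval 338 to 367), followed by ABCC1 at 162 (152 to 172) and ABCC10 at 95.3 (88.0 to 103). ABCC4 at 66.7 (60.6 to 73.2) and ABCC5 at 63.1 (57.2 to 69.4) overlapped in their intervals. ABCC11 followed at 20.2 (16.9 to 23.9), then ABCC2 at 13.7 (11.1 to 16.9) and ABCG2 at 12.8 (10.2 to 15.9), whose intervals overlapped, and ABCB1 was lowest at 3.17 (1.96 to 4.84). All other neighbours in this order had intervals that did not overlap. Sums grow with the number of sites and the length of the window, and per 100 kb of window ABCC3 again led at 362 CPM, with ABCC10 at 148, ABCC1 at 69.3 and ABCB1 at 1.27.

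Summed by gene, the pumps split in 2 directions at 24 h. ABCC1, ABCC3, ABCC5 and ABCC10 fell, and ABCB1, ABCC2, ABCC4 and ABCG2 rose, relative to other genes. On the background floor scale the ABCC4 sum was called lower instead (-0.46; edgeR adjusted p = 1.02e-05), and ABCB1 (0.20) and ABCC2 (0.04) were not called. Over all 16118 genes tested, 30.3% fell and 32.6% rose at 24 h. The listing favoured part of this split. Every pump gene that rose at 24 h held a site with a 24 h peak alone, as did ABCC1. Every one that fell held a site with a control peak alone, as did ABCC2, ABCC4, ABCC11 and ABCG2. The tests of these sums are therefore no independent support for the split. At 48 h ABCC1 and ABCC3 fell and ABCC4 and ABCG2 rose, and at 72 h ABCC1 fell and ABCC2, ABCC4 and ABCG2 rose, of which ABCC4 and ABCG2 turned negative on the background floor scale at both times and ABCC2 after 72 h. The shares over all genes were 20.6% and 20.1% at 48 h and 18.7% and 23% at 72 h. ABCC10 lost its 24 h call without replicate 1 of 24 h (-0.28; adjusted p = 0.057). ABCC11 passed at no time (log2 0.32, 0.41 and 0.38).

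**Figure D2:**
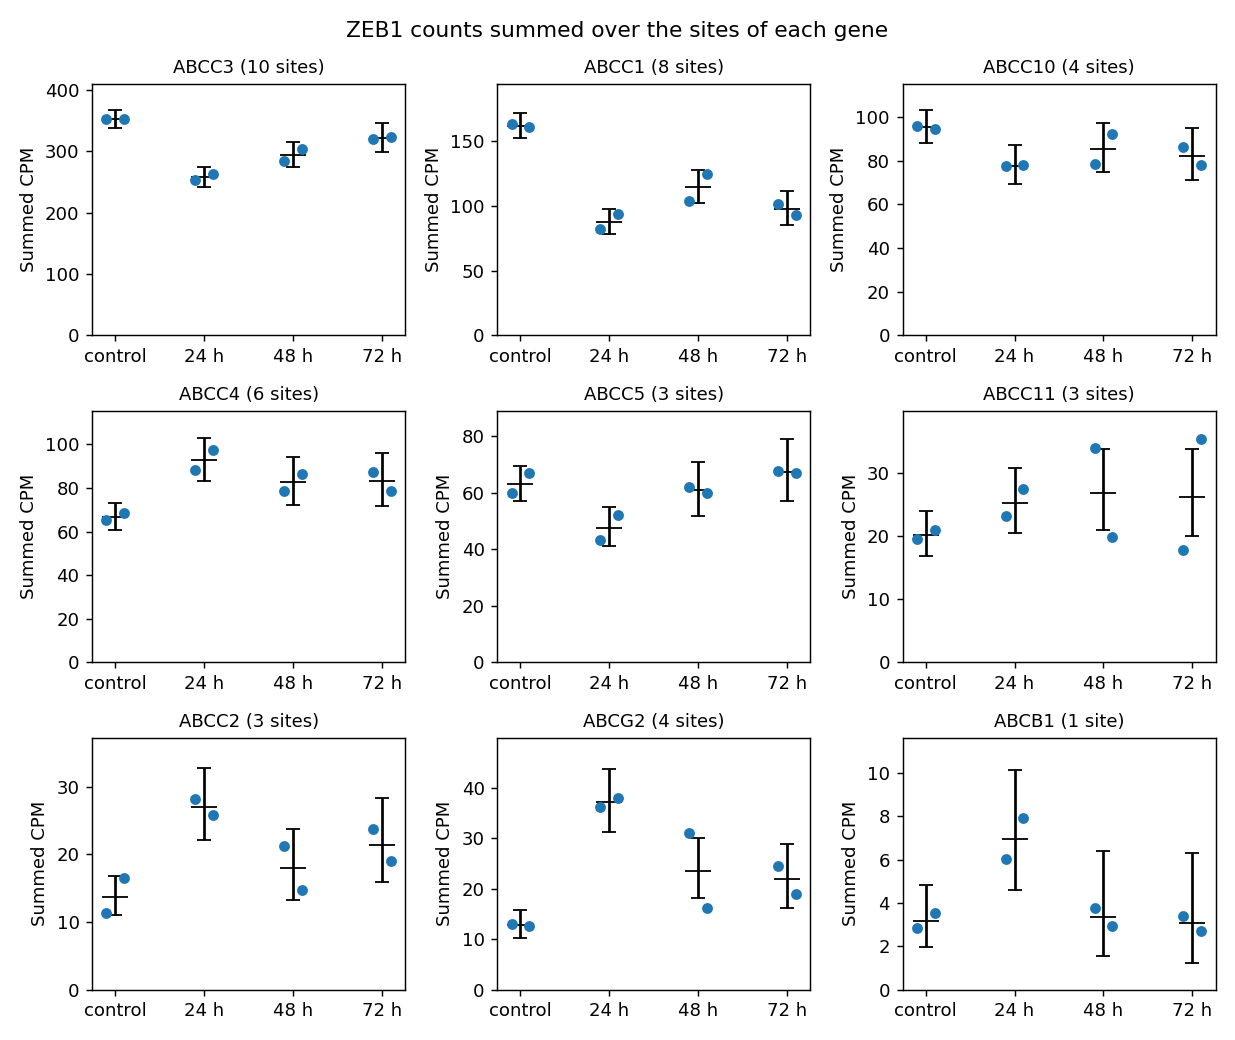
ZEB1 counts summed over the sites of each gene, in TMM-scaled CPM, in control and at 24, 48 and 72 h. Points are the 2 libraries of a group, dashes the pooled value and bars its exact 95% counting interval; relative to the other sites ABCG2 went from 12.8 to 37.1 CPM at 24 h and ABCC1 from 162 to 87.5, and on the background floor scale ABCG2 was above control at 24 h only.

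ABCB1, the gene of P-glycoprotein, had a single weak site, which relative to the other sites was called higher at 24 h and at no other time. The site (hg38, chr7:87628194-87628353) lies in the gene, 27310 bases from its nearest annotated start and 0.124 kb from RUNDC3B. Its level was 2.83 and 3.55 CPM in the control libraries, 6.04 and 7.91 after 24 h, 3.78 and 2.95 after 48 h and 3.39 and 2.72 after 72 h. Both 24 h libraries were above every other library. The log2 fold change was 1.13 after 24 h (0.26 to 2.03; edgeR adjusted p = 0.0146), 0.09 after 48 h (-1.23 to 1.27) and -0.05 after 72 h (-1.53 to 1.24). These values rest on 21 counts in control, 27 after 24 h, 9 after 48 h and 7 after 72 h. On the background floor scale the 24 h change was 0.20 (edgeR adjusted p = 0.680). There the site was called lower after 48 h (-1.31; 0.0176) and 72 h (-1.52; 0.0101). The 24 h call was lost with a DESeq2 Wald test (adjusted p = 0.232). It was also lost in edgeR with an assumed biological coefficient of variation of 0.2 (adjusted p = 0.0755). Without control replicate 1 the 24 h change was 0.93 and its edgeR adjusted p 0.125, and the direct test of 48 h against 24 h gave -1.05 (-2.32 to 0.08; edgeR adjusted p = 0.116), or -1.51 on the background floor scale (adjusted p = 0.00848). Only the 24 h peak list of the authors held a peak there, with a deposited fold enrichment of 6.08. A higher level at 24 h was thereby favoured by the listing, and the 24 h test is no independent support for one. ABCB4, which encodes the phosphatidylcholine floppase of bile and neighbours ABCB1 on chromosome 7, held no site from which to read a change.

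The genes whose summed pattern over the 3 times was nearest to that of ABCB1, by Euclidean distance of the 3 log2 fold changes (0.5 added to the pooled counts) among 14263 genes with 200 or more counts, were CD200 (1.11, 0.13 and 0.09; distance 0.0724), SMCO3 (1.20, 0.17 and 0.06) and DAB2 (1.08, 0.05 and 0.04). The values of ABCB1 in that comparison were 1.13, 0.13 and 0.02. For ABCC3, at -0.45, -0.26 and -0.13, the nearest genes were TRIM31 at a distance of 0.00588, then LRG1 and PLIN5, which share their sites with each other.

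ABCC1, which encodes MRP1, an exporter of glutathione conjugates, anthracyclines and vincristine, lost ZEB1 signal at most of its sites. In the sums the libraries gave 163 and 161 CPM in control, 82.0 and 93.3 after 24 h, 104 and 125 after 48 h, and 102 and 93.3 after 72 h. Every treated library was below both controls. The log2 fold changes were -0.89 after 24 h (-1.07 to -0.71; edgeR adjusted p = 5.14e-24), -0.50 after 48 h (-0.69 to -0.32; 2.52e-07) and -0.73 after 72 h (-0.95 to -0.52; 6.04e-12).

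Of its 6 tested sites 5 fell at 24 h, 3 after 48 h and 4 after 72 h. ABCC1 site 6 (chr16:16074354-16074806) had 43.1 and 49.4 CPM in control, 14.1 and 15.3 after 24 h, 24.9 and 14.8 after 48 h, and 16.1 and 16.3 after 72 h. No treated library reached a control library, and the log2 fold changes were -1.65 (-2.08 to -1.24), -1.22 (-1.67 to -0.79) and -1.51 (-2.04 to -1.01), with edgeR adjusted p = 1.04e-16, 8.87e-09 and 2.05e-10. At ABCC1 site 3 (chr16:15998454-15998777) the control libraries held 50.7 and 45.8 CPM, those of 24 h 21.1 and 25.8, those of 48 h 25.7 and 38.4, and those of 72 h 22.9 and 23.5. This strongest ABCC1 site changed by -1.05 (-1.40 to -0.71), -0.59 (-0.95 to -0.24) and -1.06 (-1.51 to -0.64). Its 48 h call was lost without replicate 1 of that group (-0.32; edgeR adjusted p = 0.287). The authors' lists held a peak at site 3 in all 4 groups, with deposited fold enrichments of 16.7, 8.63, 7.42 and 6.76.

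A single tested ABCC1 site went the other way. ABCC1 site 8 (chr16:16144504-16144701) lies 1.55 kb beyond the upper-coordinate end of the gene, 4.96 kb from ABCC6. It rose from 7.37 and 7.10 CPM in control to 12.8 and 17.0 after 48 h and 19.5 and 16.3 after 72 h, log2 changes of 1.04 (0.40 to 1.68; edgeR adjusted p = 0.00448) and 1.31 (0.67 to 1.94; 0.000237), and on the background floor scale these were -0.38 and -0.20. The libraries of 24 h held 8.55 and 12.7 CPM, a change of 0.54 that was not called. Without replicate 2 of the 48 h group the 48 h change was 0.84 (edgeR adjusted p = 0.149).

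ABCC2, the gene of MRP2, which exports conjugated bilirubin across apical membranes, rose at 24 h. Its summed level was 11.3 and 16.5 CPM in control, 28.2 and 25.8 after 24 h, 21.2 and 14.8 after 48 h and 23.7 and 19.0 after 72 h. The 24 h libraries were above both controls, by 0.98 on the log2 scale (0.56 to 1.40; edgeR adjusted p = 7.71e-06). The change at 48 h was 0.38 (-0.15 to 0.90; 0.241), and that at 72 h was 0.64 (0.11 to 1.16; 0.0361). The 72 h call was lost without control replicate 1 (0.37) and without either library of 72 h (0.47 and 0.79).

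Inside the gene, ABCC2 site 2 (chr10:99834511-99834634) held 1.70 and 2.26 CPM in control, 8.55 and 6.85 after 24 h, 6.05 and 2.95 after 48 h, and 9.31 and 6.34 after 72 h. It stands in the count table through a 24 h peak alone, so a higher level at 24 h was favoured by the listing. All treated libraries lay above the controls, with log2 fold changes of 1.98 (0.99 to 3.04; edgeR adjusted p = 5.41e-05), 1.19 (-0.07 to 2.44; 0.105) and 2.01 (0.90 to 3.16; 0.000819). The last of these was 1.66 with an edgeR adjusted p of 0.0796 without replicate 1 of 72 h. On the background floor scale the changes at site 2 were 1.03, -0.23 and 0.49, of which only that of 24 h was called. ABCC2 site 1 (chr10:99779930-99780058), the strongest of the gene and 2582 bases from its nearest start, rose at 24 h, from 6.80 and 9.36 CPM to 15.1 and 12.7. That change of 0.80 (0.22 to 1.37; edgeR adjusted p = 0.0101) was -0.14 on the background floor scale, 0.54 without control replicate 1 (adjusted p = 0.164) and 0.67 without replicate 1 of 24 h (0.125). Later values were 0.10 and 0.20, not called. The direct test of 48 h against 24 h gave -0.69 (-1.47 to 0.034; edgeR adjusted p = 0.116), and -1.17 on the background floor scale (adjusted p = 0.00214).

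ABCC3 carried the strongest ZEB1 site of any pump gene. It encodes MRP3, a basolateral exporter of glucuronides and bile salts. ABCC3 site 3 (chr17:50638634-50639573) is 940 bases wide and lies in the gene. In control it held 215 CPM, above 99.7% of all 52981 sites. Libraries gave 216 and 214 CPM in control, 166 and 167 after 24 h, 172 and 185 after 48 h, and 196 and 206 after 72 h. All treated libraries were below the controls, least so at 72 h, and the changes were -0.37 (-0.51 to -0.24; edgeR adjusted p = 2.28e-07), -0.27 (-0.42 to -0.12; 0.00202) and -0.10 (-0.26 to 0.05; 0.321). The 48 h change was -0.20 without replicate 1 of that group (adjusted p = 0.121). Deposited fold enrichments of the authors' peaks there were 10.9, 11.1, 10.3 and 9.18.

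Around it 7 of 9 tested ABCC3 sites fell at 24 h, 3 after 48 h and 2 after 72 h. ABCC3 site 2 (chr17:50630698-50630987) lies 4.04 kb outside the gene and 3.37 kb from CACNA1G, a calcium channel gene. It held 19.3 and 16.8 CPM in control, 5.03 and 7.38 after 24 h, 21.2 and 19.9 after 48 h, and 17.8 and 26.3 after 72 h. The 24 h libraries alone were low, with a change of -1.55 (-2.25 to -0.91; edgeR adjusted p = 5.39e-07), and later values were 0.18 (-0.31 to 0.65) and 0.27 (-0.23 to 0.76). ABCC3 site 7 (chr17:50686694-50686947) had the same order in part: 17.8 and 19.4 CPM in control, 7.55 and 6.33 after 24 h, 13.6 and 15.5 after 48 h, and 15.2 and 10.9 after 72 h. Site 7 is listed through a control peak alone, which favoured a lower level after exposure. Its 24 h change was -1.42 (-2.08 to -0.81; edgeR adjusted p = 2.16e-06), and those at 48 and 72 h were -0.35 and -0.50.

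ABCC3 site 4 was called lower at all 3 times, and ABCC3 site 6 at 24 and 72 h. Both stand in the count table through a control peak alone, so lower levels after exposure were favoured by the listing. ABCC3 site 4 (chr17:50660552-50660778) had 11.9 and 11.6 CPM in control, 2.52 and 2.11 after 24 h, 3.78 and 2.95 after 48 h, and 5.93 and 4.53 after 72 h. It changed by -2.34 (-3.53 to -1.35), -1.81 (-2.99 to -0.81) and -1.16 (-2.18 to -0.28), with edgeR adjusted p = 1.15e-07, 0.000215 and 0.0151, and the last was lost without either 72 h library (-1.36 and -0.98). ABCC3 site 6 (chr17:50671109-50671216) held 7.08 and 7.10 CPM in control, 2.52 and 2.11 after 24 h, 4.53 and 5.17 after 48 h, and 4.23 and 0.905 after 72 h. It changed by -1.61 (-2.83 to -0.57; edgeR adjusted p = 0.00161), -0.55 (-1.56 to 0.36; 0.353) and -1.43 (-2.95 to -0.20; 0.0295). That 72 h value moved to -0.74 without replicate 2 and -2.88 without replicate 1 of 72 h. The sites toward and inside ANKRD40, beyond the upper-coordinate end, were the ones that rose: ABCC3 site 10 by 0.79 after 24 h (0.37 to 1.21; edgeR adjusted p = 0.000513) and ABCC3 site 9 by 0.83 after 48 h (0.19 to 1.46; 0.0281). On the background floor scale these were -0.15 and -0.59, and the call at site 9 was lost without control replicate 1 (0.65) and without either 48 h library (0.96 and 0.70).

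At ABCC4 the weak sites 1, 2 and 5 rose relative to the other sites at 24 h, no site fell then, and the stronger ABCC4 site 4 fell at 48 h. On the background floor scale sites 1 (0.52) and 5 (0.06) were not called at 24 h. Sites 3 (-0.82), 4 (-1.20) and 6 (-1.62) were called lower then on that scale. Sites 2 and 5 entered the table through a 24 h peak alone, which favoured a higher level at 24 h there. The gene encodes MRP4, which exports cyclic nucleotides and prostaglandins. ABCC4 site 2 (chr13:95083836-95084036) held 1.70 and 2.26 CPM in control, 15.1 and 12.7 after 24 h, 7.56 and 7.38 after 48 h, and 8.47 and 6.34 after 72 h. All treated libraries were above the controls and the 24 h ones were highest. The changes were 2.83 (1.93 to 3.82; edgeR adjusted p = 8.32e-12), 1.93 (0.85 to 3.06; 0.000906) and 1.92 (0.79 to 3.09; 0.00171). On the background floor scale they were 1.87, 0.50 and 0.41, of which the first passed. Without replicate 1 of 72 h the 72 h change was 1.66 (adjusted p = 0.0796).

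ABCC4 site 1 (chr13:95020448-95020885) held 5.67 and 6.78 CPM in control, 15.1 and 19.0 after 24 h, 6.80 and 11.8 after 48 h, and 18.6 and 6.34 after 72 h. The 24 h change was 1.46 (0.87 to 2.06; edgeR adjusted p = 1.69e-06) and that of 48 h 0.59 (-0.19 to 1.35; 0.219). The 72 h libraries were far apart, with 1 of them between the controls, and the change of 1.04 (0.30 to 1.76; 0.0147) became 0.04 without replicate 1 of 72 h (adjusted p = 0.974), 0.89 without control replicate 1 (0.0828) and -0.47 on the background floor scale. By contrast, ABCC4 site 3 (chr13:95256199-95256533), the strongest, held 32.6 and 29.7 CPM in control, 34.2 and 33.2 after 24 h, 38.5 and 41.3 after 48 h and 30.5 and 35.3 after 72 h. Relative to the other sites it was called at no time (0.11, 0.36 and 0.07). On the background floor scale it was called lower at all 3 times (-0.82, -1.07 and -1.43). ABCC4 site 4 (chr13:95271287-95271683), the second strongest at 17.6 CPM in control, changed by -0.27, -0.75 (-1.41 to -0.15; edgeR adjusted p = 0.0296) and -0.43. Its 48 h call was lost without control replicate 2 (-0.67) and without either 48 h library (-0.76 and -0.71). ABCC4 site 6 (chr13:95301784-95301878), 333 bases from the annotated start, was weak at 4.22 CPM in control and its values were -0.71 after 24 h (-1.92 to 0.37; edgeR adjusted p = 0.233), 0.09 after 48 h and, after 72 h, 0.98 (0.05 to 1.87; edgeR adjusted p = 0.0698), none past the threshold. In the ABCC4 sum the changes were 0.47, 0.31 and 0.32, and the calls at 48 and 72 h were each lost without control replicate 1 (0.28 and 0.27), without replicate 2 of 48 h (0.26), and without either 72 h library (0.24 and 0.39).

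At ABCC5 the site at the start and a site inside the gene moved apart. ABCC5 encodes MRP5, an exporter of cyclic nucleotides and nucleotide analogues. ABCC5 site 3 (chr3:184017318-184018291) covers the whole promoter window printed above. It held 34.3 and 38.1 CPM in control, 33.2 and 36.4 after 24 h, 43.1 and 41.3 after 48 h, and 53.3 and 55.2 after 72 h. Only the 72 h difference was called (0.59, 0.26 to 0.91; edgeR adjusted p = 0.00166), and on the background floor scale it was -0.91. ABCC5 site 1 (chr3:183988294-183988483), 29401 bases from the nearest annotated start, held 11.0 and 16.1 CPM in control, 3.52 and 5.80 after 24 h, 6.05 and 4.43 after 48 h, and 2.54 and 1.81 after 72 h. This site is listed through a control peak alone, which favoured a lower level after exposure. All treated libraries were below the controls, with changes of -1.53 (-2.35 to -0.79), -1.36 (-2.29 to -0.54) and -2.62 (-4.28 to -1.34) and edgeR adjusted p = 2.12e-05, 0.00145 and 2.24e-06. The 48 h call was lost without replicate 2 of that group (-1.12; adjusted p = 0.073). In the sum ABCC5 fell at 24 h by 0.41 on the log2 scale (edgeR adjusted p = 0.0026), a call that was lost without replicate 1 of 24 h (-0.26; 0.153).

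ABCC10, the gene of MRP7, which can export docetaxel, had its strongest ZEB1 site at its start, and that site was called at 48 h only. ABCC10 site 1 (chr6:43427411-43428163), over the printed promoter window with its 5 GC boxes, held 61.5 and 59.0 CPM in control, 58.3 and 52.7 after 24 h, 40.8 and 53.9 after 48 h, and 51.6 and 52.5 after 72 h. The changes were -0.12 (-0.36 to 0.12), -0.35 (-0.65 to -0.06) and -0.21 (-0.52 to 0.09). On the background floor scale they were -1.05, -1.77 and -1.72. Relative to the other sites only that of 48 h passed (edgeR adjusted p = 0.0475), and it did not when replicate 1 of 48 h was left out (-0.15; 0.61), nor when either control (-0.31 and -0.37), replicate 2 of 24 h (-0.34) or either library of 72 h (-0.33 each) was. ABCC10 site 2 (chr6:43436676-43436868), 8813 bases from the nearest start, held 17.6 and 19.4 CPM in control, 7.04 and 7.91 after 24 h, 10.6 and 9.59 after 48 h, and 6.77 and 6.34 after 72 h. Site 2 is listed through a control peak alone, which favoured a lower level after exposure. All treated libraries were below the controls, and it changed by -1.30 (-1.94 to -0.71), -0.87 (-1.53 to -0.26) and -1.49 (-2.37 to -0.71), with edgeR adjusted p = 1.01e-05, 0.0109 and 0.000133, and the 48 h call was lost without either 48 h library (-0.92 and -0.77).

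ABCC10 site 3 (chr6:43454337-43454452) lies 2.40 kb downstream, inside DLK2, and was highest at 48 h. It had 1.98 and 1.94 CPM in control, 4.53 and 4.74 after 24 h, 14.4 and 13.3 after 48 h, and 10.2 and 3.62 after 72 h. All treated libraries exceeded the controls, by 1.24 (0.13 to 2.39; edgeR adjusted p = 0.0334), 2.82 (1.87 to 3.85; 1.50e-09) and 1.84 (0.69 to 3.01; 0.00351). The 24 h call was lost on leaving out any one of the control or 24 h libraries (1.16 to 1.26), and the 72 h change was 0.87 without replicate 1 of 72 h (adjusted p = 0.513). Of the pump sites it was the only one still called higher at 48 h on the background floor scale, at 1.38. The site stands in the count table through a 48 h peak alone, so a higher level at 48 h was favoured by the listing. Its 48 h tests are therefore no independent support for one.

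ABCC11 encodes MRP8, a pump of lipophilic anions known for its part in earwax type. ABCC11 site 3 (chr16:48244166-48244473) lies 115 bases from an annotated start and also inside LONP2, next to the printed window that holds 3 E-box matches. It held 7.08 and 6.13 CPM in control, 12.6 and 8.96 after 24 h, 18.1 and 9.59 after 48 h, and 7.62 and 17.2 after 72 h. All treated libraries were above the controls, though the pairs at 48 and 72 h were wide apart. The changes of 0.70 (0.06 to 1.35; edgeR adjusted p = 0.0456), 1.06 (0.39 to 1.72; 0.00591) and 0.88 (0.15 to 1.60; 0.0405) were -0.23, -0.36 and -0.62 on the background floor scale. The 24 h call was lost on leaving out either control, replicate 1 of 24 h (0.44), or any 1 of the 48 and 72 h libraries (0.68 each). The 48 h call was lost without replicate 1 of 48 h (0.54; 0.45), and the 72 h call without either control (0.98 and 0.77) or replicate 2 of 72 h (0.20; 0.831).

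ABCG2 was higher at 24 h in the sums. Its sites 1 to 3 stand in the count table through a 24 h peak alone, so a higher level at 24 h was favoured by the listing, and the tests here are no independent support for one. Its libraries held 13.0 and 12.6 CPM in control, 36.2 and 38.0 after 24 h, 31.0 and 16.2 after 48 h, and 24.6 and 19.0 after 72 h. Both 24 h libraries were above every other, and all treated libraries were above the controls. The changes were 1.53 after 24 h (1.13 to 1.94; edgeR adjusted p = 1.84e-14), 0.88 after 48 h (0.38 to 1.36; 0.00148) and 0.77 after 72 h (0.24 to 1.29; 0.0109). On the background floor scale ABCG2 stayed higher at 24 h (0.60; adjusted p = 0.00287) and was lower at 48 h (-0.55) and 72 h (-0.73). The 48 h change was 0.35 without replicate 1 of 48 h (adjusted p = 0.491) and the 72 h change 0.57 without replicate 1 of 72 h (0.246).

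The ABCG2 gains lay at 3 of its 4 sites. ABCG2 sites 2 (chr4:88158470-88158748) and 3 (chr4:88158871-88159163) sit on annotated starts of the gene, in the GC-rich windows printed above, which hold no E-box, and inside LOC124900867. ABCG2 site 2 held 1.42 and 1.61 CPM in control, 10.1 and 13.7 after 24 h, 8.31 and 5.17 after 48 h, and 6.77 and 4.53 after 72 h. All treated libraries were above the controls, and the changes were 2.97 (1.97 to 4.12; edgeR adjusted p = 1.01e-10), 2.16 (0.96 to 3.43; 0.000646) and 1.91 (0.61 to 3.26; 0.00714). These values rest on 10 counts in control and 46, 18 and 13 after exposure. Like ABCG2 sites 1 and 3, it stands in the count table through a peak of the 24 h list alone. The 24 h rise was 2.01 on the background floor scale, also called, and the later values there were 0.72 and 0.40. Without replicate 1 of the group the 48 h change was 1.75 (adjusted p = 0.0726) and the 72 h change 1.55 (0.177).

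ABCG2 site 3 followed the same order, with 1.98 and 1.61 CPM in control, 7.55 and 7.38 after 24 h, 6.80 and 4.43 after 48 h, and 6.77 and 3.62 after 72 h. It rose by 2.04 (1.03 to 3.15; edgeR adjusted p = 4.88e-05), 1.63 (0.44 to 2.86; 0.0145) and 1.54 (0.25 to 2.82; 0.033). On the background floor scale these were 1.09, 0.20 and 0.03, of which only that of 24 h was called. The later calls were lost without control replicate 2 (1.47 and 1.36), without replicate 1 of the treated group (1.28 and 0.98) and, for 72 h, without control replicate 1 (1.65). ABCG2 site 1 (chr4:88143641-88143821), 14818 bases from the nearest start, was high at 24 h only: 4.53 and 2.90 CPM in control, 12.6 and 11.6 after 24 h, 6.80 and 2.95 after 48 h, and 4.23 and 4.53 after 72 h. Its 24 h change was 1.68 (0.95 to 2.44; edgeR adjusted p = 5.95e-06), and the later ones were 0.36 and 0.21, the former -0.33 without replicate 1 of 48 h. ABCG2 site 4 held 5.73 CPM in control and was called at no time relative to the other sites (-0.02, 0.15 and 0.20). On the background floor scale it was called lower at all 3 times (-0.94, -1.26 and -1.30).

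**Figure D3:**
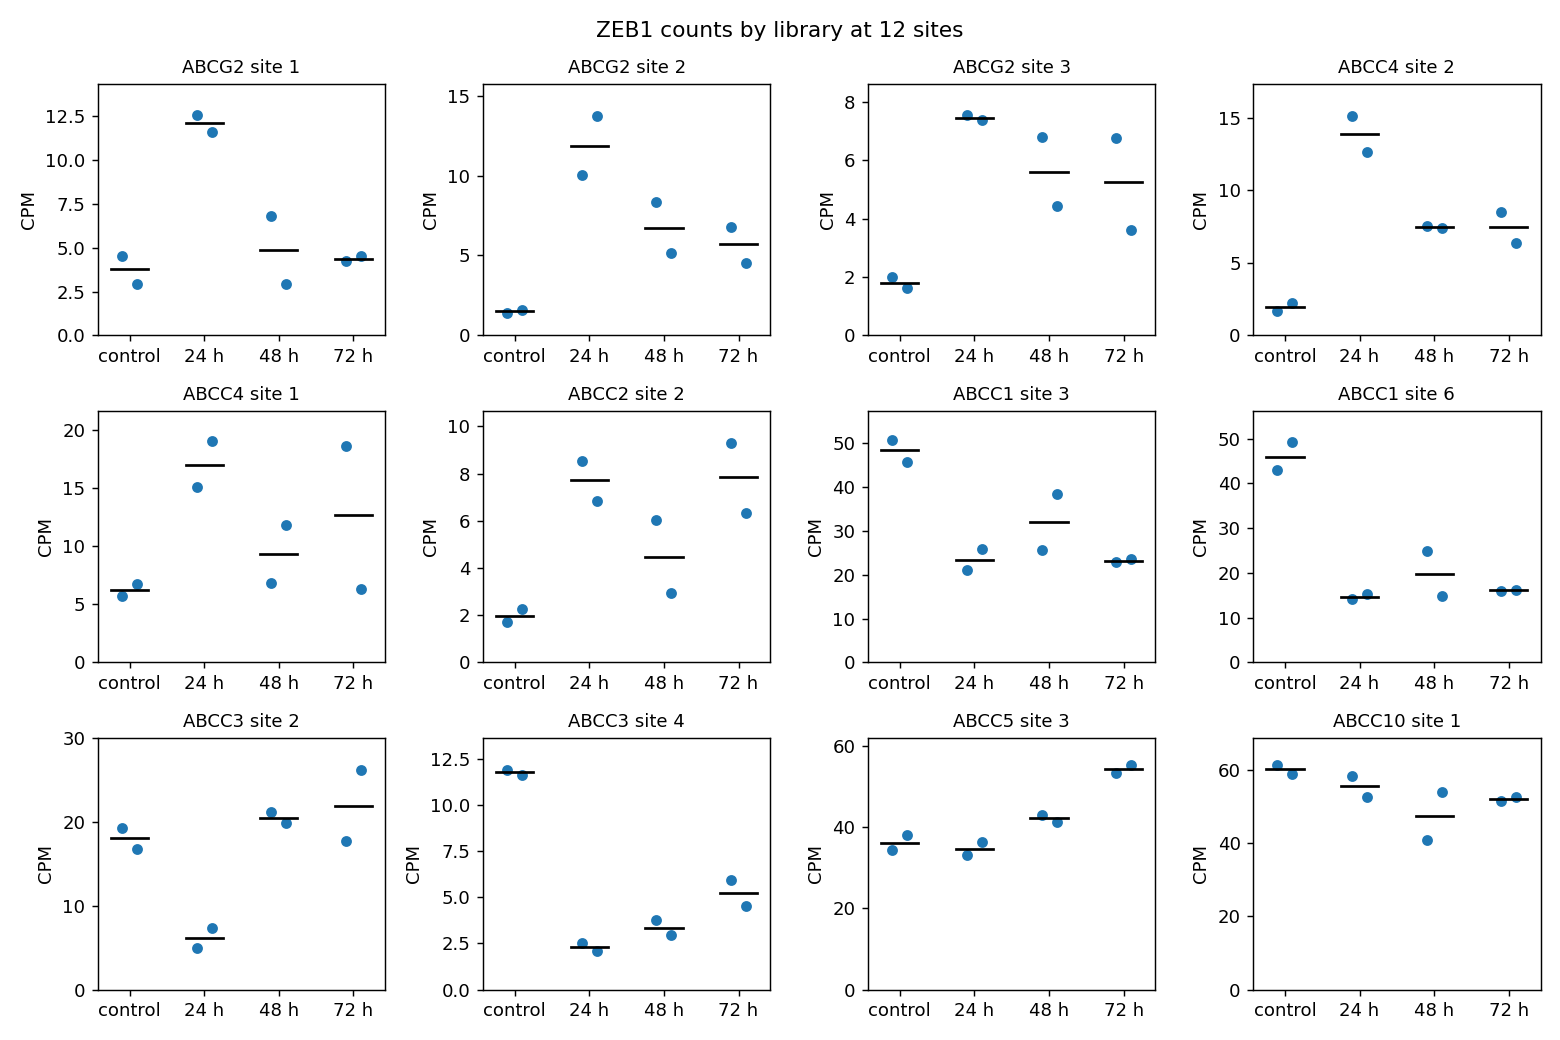
TMM-scaled CPM at 12 of the named pump sites in each library; points are libraries, black lines the pooled value of the pair. Relative to the other sites, ABCG2 sites 1 to 3 and ABCC4 site 2 are highest at 24 h, ABCC1 sites 3 and 6 and ABCC3 site 4 stay below control, ABCC3 site 2 is low at 24 h only, and the 72 h libraries of ABCC4 site 1 lie far apart.

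The authors' peak lists thinned with exposure at the pump sites, as they did over all sites. A peak overlapped 33 of the 42 sites in control, 25 after 24 h, 14 after 48 h and 11 after 72 h (78.6%, 59.5%, 33.3% and 26.2%), beside 86.6%, 61.3%, 39.4% and 32.1% of all sites. In all 4 lists were 8 sites: ABCC1 sites 2, 3 and 8, ABCC3 sites 3 and 5, ABCC4 site 3, ABCC5 site 3 and ABCC10 site 1. Their control levels ran from 7.24 to 215 CPM. Peaks of control only marked 13 sites, with control levels from 3.32 to 18.6 CPM. They lay at ABCC1 (sites 1 and 7), ABCC2 (site 3), ABCC3 (sites 1, 4, 6, 7 and 8) and ABCC4 (site 6). The rest were ABCC5 site 1, ABCC10 site 2, ABCC11 site 1 and ABCG2 site 4. A peak of 24 h only marked 8 sites, at ABCB1, ABCC1 (site 4), ABCC2 (site 2), ABCC4 (sites 2 and 5) and ABCG2 (sites 1 to 3), with control levels from 1.51 to 5.43 CPM. Every pump site in the count table held a peak in at least 1 list, so these 8 sites stand in the table through a 24 h peak and had none in the control list. A higher level at 24 h than in control was thereby favoured at them, as a lower level was at the 13 sites of the control list only, so their calls are not counted here as support. The same holds for a higher level at 48 h at ABCC10 site 3, which held a peak of 48 h only.

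Between successive times few pump sites moved relative to the other sites. From 24 to 48 h, 3 of 37 tested pump sites fell and 3 rose, where 14.4% and 16.8% of all tested sites did. ABCC3 sites 2 and 7 and ABCC10 site 3 rose, and ABCC4 sites 1 and 2 and ABCG2 site 1 fell. The peak listing favoured the changes at ABCC10 site 3, ABCC4 site 2 and ABCG2 site 1. On the background floor scale 13 pump sites were called lower and 2 higher at 48 h than at 24 h. From 48 to 72 h no pump site was called by edgeR in either direction (2.4% and 2.82% of all tested sites), and 2 of 37 had an unadjusted p under 0.05. An assumed biological coefficient of variation of 0.2 also gave 0 calls between 48 and 72 h. Leaving out any one of the 24 and 48 h libraries left 1 site lower from 24 to 48 h, and without replicate 1 of 48 h 5 sites rose.

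**Figure D4:**
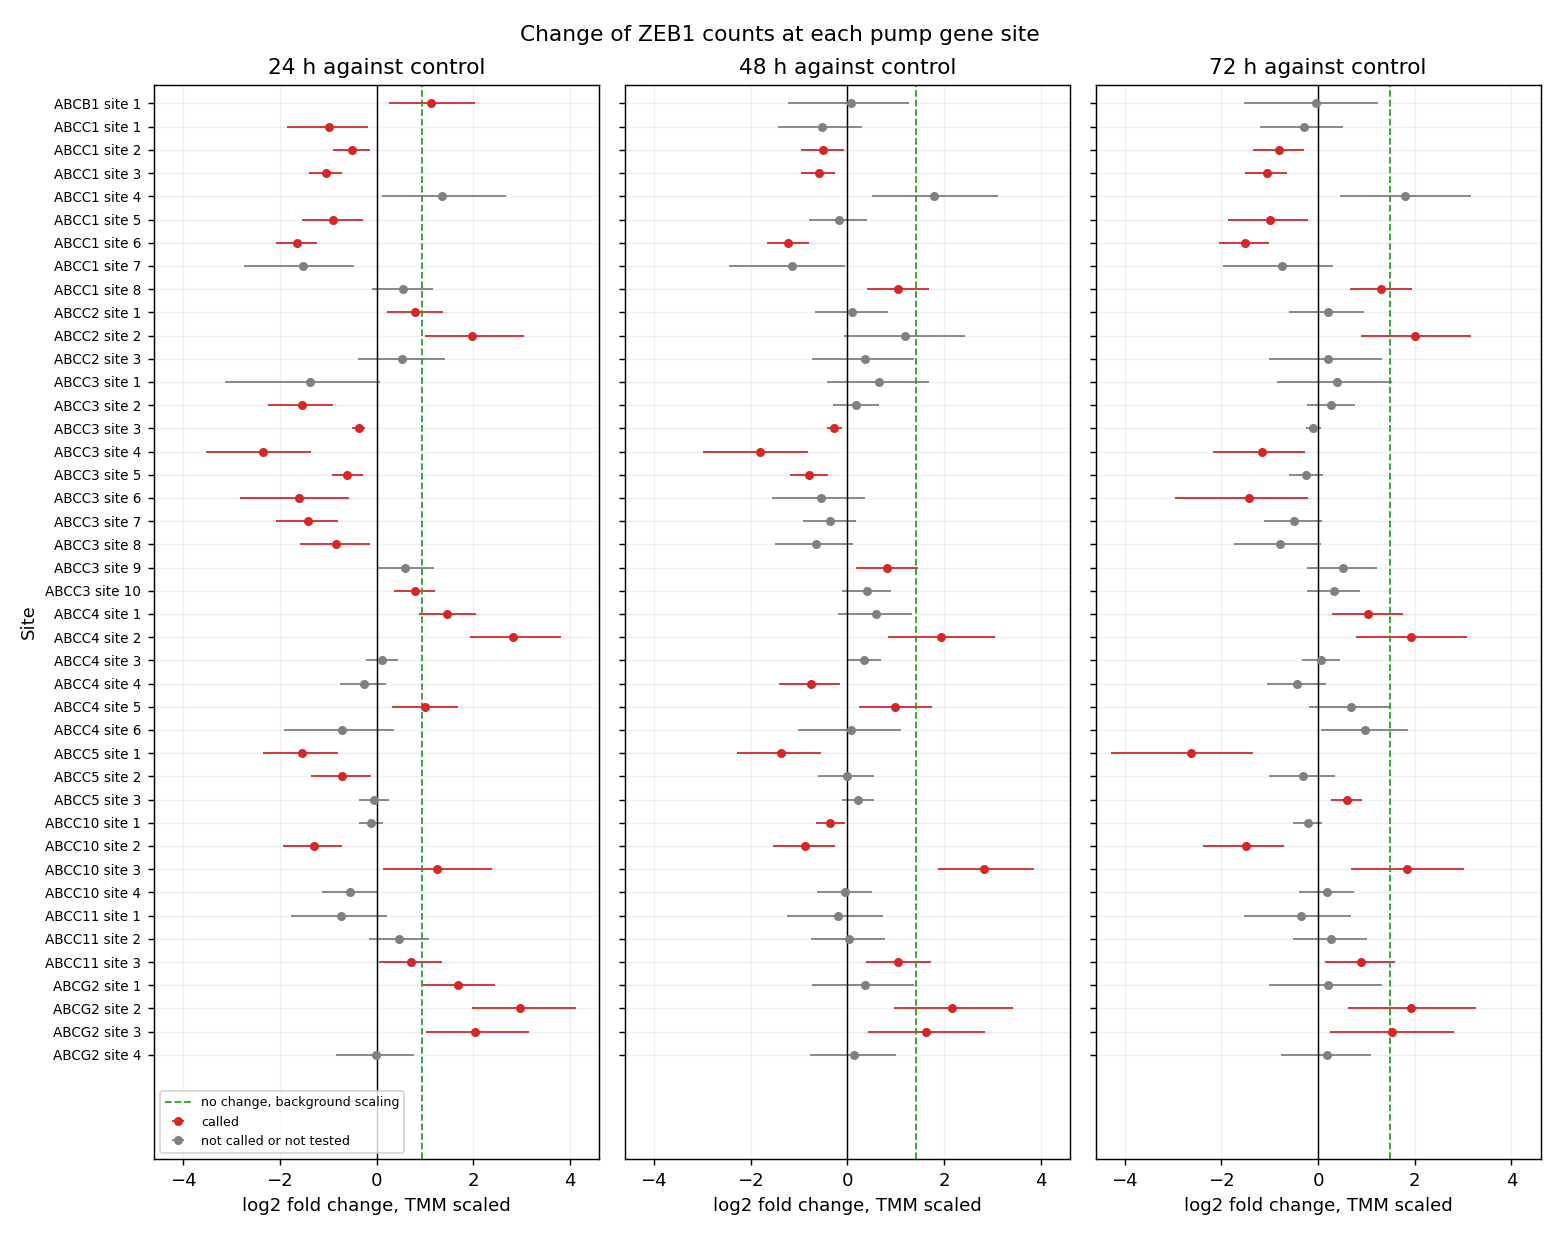
Log2 fold change of TMM-scaled ZEB1 counts at each of the 42 pump sites at 24, 48 and 72 h against control, with exact 95% counting intervals. Red points passed the edgeR test at an adjusted p of 0.05. The black line is no change relative to the other sites and the green dashed line is no change on the background floor scale. At 24 h 15 sites lie called to the left and 12 to the right of the black line. At 72 h no site was called higher when tested on the background floor scale, though some red points lie to the right of the green line.

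Genes that act beside the pumps were read by the same window rule. Their calls and levels below are relative to the other sites, and their values on the background floor scale are not given here. On that scale the median of all sites moved by -0.93, -1.41 and -1.50 at the 3 times. Which peak lists held these sites is not given either. The 38 other ABC transporter genes had 117 sites at 29 genes, and of 104 tested 33 fell and 22 rose at 24 h, 13 and 16 after 48 h, and 15 and 18 after 72 h, beside 26.8% and 28.1%, 16.9% and 16.8%, and 17% and 18.9% of all tested sites. As shares of this list these were 31.7% and 21.2%, 12.5% and 15.4%, and 14.4% and 17.3%. The medians were -0.03, 0.04 and 0.12 beside the 0.02, -0.01 and 0.00 of all tested sites. An ABCA7 site (chr19:1062906-1063284), in the gene of a lipid transporter, went from 3.92 CPM to 26.3, 11.9 and 6.56. A site in the window of TAP1 and TAP2, the peptide transporter of antigen presentation (chr6:32837641-32837854), rose from 8.75 CPM to 35.4 after 72 h (log2 2.02, 1.51 to 2.53; edgeR adjusted p = 1.41e-13). At 6.61 kb from ABCG4, a sterol transporter gene, a strong site held 110 CPM in control, 80.3 after 24 h, 114 after 48 h and 180 after 72 h.

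Regulators of pump genes, 16 genes such as PXR (NR1I2), NRF2 (NFE2L2) and NF-Y, had 61 tested sites. Of these 19 fell and 20 rose at 24 h, 9 and 13 after 48 h, and 7 and 8 after 72 h. In percent of the list these were 31.1% and 32.8% (all tested sites 26.8% and 28.1%), 14.8% and 21.3% (16.9% and 16.8%), and 11.5% and 13.1% (17% and 18.9%). Their medians were -0.08, -0.11 and -0.05. The site near NFYA, which encodes a subunit of the CCAAT-binding factor NF-Y, held 167 CPM in control and 318, 237 and 164 CPM at the 3 times (24 h log2 0.93, 0.81 to 1.05; edgeR adjusted p = 1.27e-41). That gain is relative to the other sites, whose median moved by -0.93 at 24 h on the background floor scale. NFE2L2, the antioxidant response factor, had a site 17.6 kb outside the gene with 20.1 CPM in control and 60.5, 25.8 and 21.4 CPM after exposure. A site in VDR, the vitamin D receptor gene, fell from 22.2 CPM to 2.32 after 24 h, 7.09 after 48 h and 11.8 after 72 h.

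Drug uptake and conjugation genes, 28 in number, had 76 tested sites, of which 29 fell and 17 rose at 24 h, 17 and 6 after 48 h, and 14 and 10 after 72 h. These shares of 38.2% and 22.4%, 22.4% and 7.89%, and 18.4% and 13.2% stand beside 26.8% and 28.1%, 16.9% and 16.8%, and 17% and 18.9% of all tested sites. The medians of the list were -0.34, -0.10 and -0.02. A site 19.6 kb from SLC22A5, the carnitine carrier gene, fell from 55.5 CPM to 17.8 after 24 h, 29.9 after 48 h and 29.8 after 72 h. Near CYP1B1, a cytochrome P450 that oxidises estrogens and some drugs, a site held 109 CPM in control and 58.7, 55.3 and 68.3 CPM after exposure. At GSTP1, which conjugates drugs to glutathione for the MRPs, a site rose from 28.7 to 62.3 CPM at 24 h (log2 1.12, 0.84 to 1.40; edgeR adjusted p = 2.27e-14) and stood at 37.7 and 31.5 CPM later. These values too are relative to the other sites. On that scale each of these lists, like the pump genes, held sites that fell and sites that rose at every time.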

How the data were processed

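ZEB1 libraries were compared over the deposited count table, whose counts are whole numbers per site without normalization; which of reads and fragments these tally is not given in the sources used here. The submitters' processing notes name hg38 and, without role or order, Bowtie2 2.2.6 and MACS2 2.1.1, featureCounts, bedtools 2.30.0, cutadapt 2.4, deepTools, bcl2fastq 2.20.0.422 and Picard. The deposited peak lists, 1 per group, give a fold enrichment (ratio) over background and a -log10 p, in the layout of MACS2.

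Counts were fitted in edgeR 4.0.16 (R 4.3.3): TMM factors on the sites kept by filterByExpr, glmQLFit (robust) over all 8 libraries, with group as the sole factor, 2-sided tests and Benjamini-Hochberg adjustment over all tested sites. The fitted common dispersion was 9.77e-05, which reflects counting noise and not variation between cultures. Gene sums used the same fit on the summed counts of every protein-coding gene's sites, and windows of neighbouring genes can share sites. The fit was also run on simulated counts with sampling noise only and changes planted at 72 h. Such counts cannot show how it handles variation between cultures. Peak overlaps used bedtools 2.31.1, any shared base counting. The background floor was recovered from the fold and p columns of the lists, which carry the name of replicate 1, and was 108%, 101% and 95.2% of control at 24, 48 and 72 h. Gene positions are RefSeq spans without exons, so exon or intron was not assigned, and for genes without a promoter window the strand was not used.

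Sites named in full are the strongest of each gene, those within 1 kb of an annotated start, and those called at least 2-fold with both treated libraries on the same side of both controls; in each other list the 3 sites with the smallest p. ABCC3 sites 9 and 10, ABCC4 site 4 and ABCG2 site 4, the sites listed by peak class and the step between times were added outside this rule. The members and lists were chosen with earlier results of these data known. Alternatives were other scalings, filters, windows, a DESeq2 1.42.0 Wald test, an assumed biological coefficient of variation of 0.2, and leaving out each library.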

Additional observations from a re-analysis of the deposited data

Results flagged for a closer look

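At 6 pump sites the change against control differed between 24 h and 48 h when the times were tested directly against each other (edgeR quasi-likelihood test, adjusted over all tested sites). ABCC3 site 2 rose by 1.72 on the log2 scale from 24 to 48 h (adjusted p = 4.34e-06), and both 48 h libraries were above both 24 h libraries. ABCC10 site 3 rose by 1.56 (adjusted p = 0.000666) and ABCC3 site 7 by 1.06 (adjusted p = 0.013), again in both libraries. ABCG2 site 1 changed by -1.31 (adjusted p = 0.00865), ABCC4 site 2 by -0.89 (adjusted p = 0.0445) and ABCC4 site 1 by -0.86 (adjusted p = 0.0299), with both 48 h libraries below both 24 h libraries. ABCG2 site 1 and ABCC4 site 2 are listed through a 24 h peak alone, and ABCC10 site 3 through a 48 h peak alone. The listing favoured the changes at these sites, so their tests are no independent support. Scaled to the background floor instead, 13 pump sites were lower at 48 h than at 24 h, and the rise at ABCC3 site 7 was 0.57 and not called (adjusted p = 0.171).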

How the results depend on the processing

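The calls rest on 1 sample per group and on counting noise. The pump sites called lower and higher were 15 and 12 after 24 h, 10 and 8 after 48 h, and 8 and 9 after 72 h. A DESeq2 Wald test gave 8 and 6, 2 and 3, and 4 and 3, and an assumed biological coefficient of variation of 0.2 gave 8 and 6, 3 and 3, and 4 and 5. On the background floor scale 5 were higher at 24 h, 28 lower and 1 higher at 48 h, and 28 lower and 0 higher at 72 h. Sites inside the genes alone gave 5 higher at 48 h. With at least 50% of the site covered, 6 sites rather than 11 held a 72 h peak. From 24 to 48 h, 3 were lower; 13 were on the background floor scale, 1 with factors from low-count sites and 0 with the assumed coefficient. Leaving out 1 library at a time gave, lower and higher, 10 to 16 and 7 to 12 after 24 h, 4 to 10 and 3 to 9 after 48 h, 4 to 8 and 4 to 10 after 72 h, and 1 to 2 and 2 to 5 from 24 to 48 h.

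Of the 99 named values, 40 changed sign under at least 1 setting. The background floor scale turned 36, of which 26 were called in the turned direction on that scale and 14 were called in the reported fit. These 14 were ABCC2 site 1 after 24 h (-0.14), ABCC11 site 3 (-0.23, -0.36 and -0.62), the ABCC4 sum (-0.46, -1.12 and -1.19), ABCC1 site 8 after 48 h (-0.38) and 72 h (-0.20), the ABCG2 sum after 48 h (-0.55) and 72 h (-0.73), ABCC4 site 1 (-0.47), ABCC5 site 3 (-0.91) and the ABCC2 sum (-0.86) after 72 h. The others were not called in the reported fit. After 24 h they were ABCC1 site 8 (-0.39), ABCC4 site 3 (-0.82) and the ABCC11 sum (-0.61). After 48 h they were the only ABCB1 site and its sum (-1.31), ABCC2 site 1 (-1.31), ABCC2 site 2 (-0.23), ABCC3 site 2 (-1.24), ABCC4 site 1 (-0.82), ABCC4 site 3 (-1.07), ABCC4 site 6 (-1.32), ABCC5 site 3 (-1.19), ABCG2 site 1 (-1.04), and the ABCC2 (-1.03) and ABCC11 (-1.01) sums. After 72 h they were ABCC2 site 1 (-1.29), ABCC3 site 2 (-1.23), ABCC4 site 3 (-1.43), ABCC4 site 6 (-0.52), ABCG2 site 1 (-1.27), and the ABCC5 (-1.41) and ABCC11 (-1.12) sums. With factors from low-count sites ABCC4 site 3 was -0.060 after 24 h, and scaled to total site counts ABCC5 site 3 was 0.040.

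Leaving out 1 library turned the sign of 15 named values, none of them called with or without that library. Over these omissions ABCC5 site 3 ranged from -0.16 to 0.023 after 24 h. After 48 h the ranges were -0.087 to 0.27 for the ABCB1 site and its sum, -0.12 to 0.33 for ABCC2 site 1, -0.14 to 0.30 for ABCC4 site 6, -0.33 to 0.86 for ABCG2 site 1, -0.13 to 0.026 for the ABCC5 sum and -0.0075 to 0.77 for the ABCC11 sum. After 72 h they were -0.22 to 0.10 for the ABCB1 site and its sum, -0.034 to 0.42 for ABCC2 site 1, -0.025 to 0.54 for ABCC3 site 2, -0.034 to 0.18 for ABCC4 site 3, -0.061 to 0.57 for ABCG2 site 1 and -0.18 to 0.81 for the ABCC11 sum. Of 63 called named values, 31 were lost with the assumed coefficient and 28 with DESeq2; the cause of the losses under DESeq2 was not tested.

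Same-numbered libraries did not deviate together (correlations from -0.011 to 0.017 over 10503 sites). The libraries of a group differ by less than sampling noise, so these correlations cannot show whether the numbers pair libraries across groups. A replicate block gave 15 and 12, 9 and 8, 8 and 9, 3 and 3 from 24 to 48 h, and 0 and 0 from 48 to 72 h, and changed none of the 99 named values' calls.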
